A study of Mus musculus with 8 samples.

Results

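The aminoacyl-tRNA synthetases were followed here across the skin epithelium of MOF and Kansl1 conditional knockout (cKO) mice and their controls. The group held 36 genes of the 23432 listed in each library. They were taken by gene symbol: 20 genes of cytosolic enzymes and 16 of mitochondrial enzymes, whose symbols end in 2. Gars and Kars encode enzymes of both compartments and were counted with the cytosolic genes.

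Bulk RNA sequencing covered 4 groups of 2 libraries, 8 in all. In E16.5 embryos, K14-H2BGFP+ epithelial cells, whose nuclei carry green fluorescent protein driven by the Krt14 promoter, were sorted from backskin of control and MOF cKO (MOFfl/fl/K14Cre) embryos. At P0.5, just after birth, the whole epidermal sheet of control and Kansl1 cKO (Kansl1fl/fl/K14Cre) pups was lysed without sorting. Controls were littermates described as wildtype or heterozygous, all mice were of a mixed C57Bl/6J and CD-1 background, and Cre acts only where the Krt14 promoter is active. MOF, encoded by Kat8, is the acetyltransferase of histone H4 lysine 16, and Kansl1 is a subunit of the NSL complex, one of the complexes in which MOF works. The comparisons ask what each deletion does to RNA levels in the skin epithelium.

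Counts on genes ran from 9108709 to 27561688 per library, and the P0.5 control replicate 1 library was the shallowest. Libraries of 1 group are separate samples in the labels. With 2 per group, p-values weigh a group difference only against the spread between these samples, a spread estimated partly from the other genes tested. All 10 epidermal markers were present in every library (CPM is a library's count on a gene scaled to a common library size with edgeR's TMM factors within each experiment). Their summed level was 35600 and 34083 CPM in E16.5 control and 37367 and 45356 CPM in MOF cKO. At P0.5 it was 85488 and 54986 CPM in control and 55118 and 81608 CPM in Kansl1 cKO. Krt14 alone was at 10034 and 9687 CPM in E16.5 control and 5262 and 6062 CPM in P0.5 control. Whole-gene counts do not resolve the deleted exons, and the extent of deletion was not tested. Kat8 was at 14.4 and 14.7 CPM in control and 12.4 and 13.9 CPM in MOF cKO, a log2 difference of -0.14 (adjusted p = 0.554 with edgeR). Kansl1 was at 40.6 and 48.1 CPM in control and 31.4 and 30.6 CPM in Kansl1 cKO, a difference of -0.52 (adjusted p = 0.242 with edgeR). Sexes were not matched. Xist was above 370 CPM in E16.5 control replicate 1 and in 3 of the 4 P0.5 libraries, all but control replicate 2, and at 12.0 CPM or less in the other libraries. Markers of macrophages were higher in MOF cKO, 14 of 14 tested. By the thresholds given with the results 8 of them were called, where 10% of all genes tested were called up and 9.59% down. Their summed levels were 22.0 and 47.6 CPM in control and 117 and 147 CPM in MOF cKO. Tyrobp was at 0 in control replicate 2. Fibroblast markers summed to 918 and 1556 CPM in control and 1547 and 2156 CPM in MOF cKO, melanocyte markers to 18.1 and 49.3 against 20.4 and 74.8 CPM and endothelial markers to 6.16 and 7.22 against 10.8 and 22.3 CPM, with 1 of these 19 genes called, Pecam1. In bulk samples fewer cells of a type and less RNA per cell cannot be told apart. The part of these cells in the results was not tested.

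Each aminoacyl-tRNA synthetase charges tRNAs with their amino acid, the step that fixes the genetic code during translation. The cytosolic enzymes feed the ribosomes that translate nuclear genes, and several of them sit in the multisynthetase complex. The mitochondrial enzymes are encoded in the nucleus, imported, and feed the mitochondrial ribosomes, which make core subunits of the respiratory chain. Genes of cytosolic synthetases are known targets of ATF4, the transcription factor of the integrated stress response, which binds C/EBP-ATF response elements. Keratinocytes of the skin depend on both translation systems as they divide in the basal layer and differentiate upwards.

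Promoters were read from RefSeq (GRCm38.p6), 250 bases before to 50 bases after each start, for 27 of the 36 genes, 13 cytosolic and 14 mitochondrial. Those without an entry were Cars, Hars, Lars, Nars, Rars, Vars, Wars, Hars2 and Pars2. The core of the C/EBP-ATF response element, TGATGNAA on either strand, stood in 5 of the 13 cytosolic promoters and in 0 of the 14 mitochondrial ones, against 4.51% of all 27025 genes with a promoter. The 5 were Aars, Gars, Iars, Tars and Yars, the genes of the alanine, glycine, isoleucine, threonine and tyrosine enzymes. All 5 are shown because they hold the motif, whatever their values. Capitals mark the match, each sequence is written 5′ to 3′ along the gene's strand, and a match is no evidence of binding. The windows are chr8:111033592-111033891 on the plus strand for Aars, chr6:55037751-55038050 on the plus strand for Gars, chr13:49681880-49682179 on the plus strand for Iars, chr15:11399609-11399908 on the minus strand for Tars and chr4:129189653-129189952 on the plus strand for Yars.
Aars: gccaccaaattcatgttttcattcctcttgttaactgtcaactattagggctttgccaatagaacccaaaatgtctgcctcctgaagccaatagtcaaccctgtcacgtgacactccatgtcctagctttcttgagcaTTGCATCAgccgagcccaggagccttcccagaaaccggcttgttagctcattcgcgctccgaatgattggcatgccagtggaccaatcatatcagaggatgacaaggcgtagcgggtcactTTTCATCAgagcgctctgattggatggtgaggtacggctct
Gars: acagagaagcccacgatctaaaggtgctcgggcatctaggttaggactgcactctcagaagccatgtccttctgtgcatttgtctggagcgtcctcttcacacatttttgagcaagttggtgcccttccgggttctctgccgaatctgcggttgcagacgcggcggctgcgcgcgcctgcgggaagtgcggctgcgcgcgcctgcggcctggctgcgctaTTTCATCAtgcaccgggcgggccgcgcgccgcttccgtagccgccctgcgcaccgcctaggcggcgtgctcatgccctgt
Iars: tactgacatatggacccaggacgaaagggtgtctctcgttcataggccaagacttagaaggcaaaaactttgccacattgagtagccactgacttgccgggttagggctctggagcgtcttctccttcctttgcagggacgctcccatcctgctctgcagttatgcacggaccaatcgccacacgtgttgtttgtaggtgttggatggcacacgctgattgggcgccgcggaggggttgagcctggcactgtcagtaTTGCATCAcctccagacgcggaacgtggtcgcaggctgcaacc
Tars: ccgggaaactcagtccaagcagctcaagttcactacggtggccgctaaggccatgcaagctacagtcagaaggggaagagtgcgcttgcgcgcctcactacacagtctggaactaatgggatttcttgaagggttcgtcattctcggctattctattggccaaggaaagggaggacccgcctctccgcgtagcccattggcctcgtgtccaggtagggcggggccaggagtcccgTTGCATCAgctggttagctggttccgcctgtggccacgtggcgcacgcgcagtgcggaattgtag
Yars: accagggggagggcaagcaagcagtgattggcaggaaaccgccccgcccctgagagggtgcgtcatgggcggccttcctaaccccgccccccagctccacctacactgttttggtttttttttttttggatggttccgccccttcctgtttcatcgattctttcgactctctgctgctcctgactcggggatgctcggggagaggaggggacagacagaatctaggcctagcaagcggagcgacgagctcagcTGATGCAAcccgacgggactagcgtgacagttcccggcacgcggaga

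The match in Gars begins 30 bases and that in Tars 15 bases before the annotated start, while the matches in Iars and Yars begin within the first bases after it. Aars holds 2 matches, the first beginning 112 bases before the start. The E-box CACGTG, the site of Myc and Max among other factors, stood in Aars, Farsb, Iars and Tars of the 13 cytosolic promoters and in Ears2 of the 14 mitochondrial ones, against 8.09% of all genes. The palindromic core of the NRF1 site was found in 0 of these windows, against 1.07% of all genes. Each was searched on both strands, and none of the motifs contains another.

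Levels between genes were compared as RPKM (CPM with all 8 libraries scaled together, per kilobase of exon). In E16.5 control the most abundant entry after Lars2 was Vars (valine) at 75.003 ± 1.92 RPKM (mean ± SD, n = 2), followed by Kars (lysine) at 64.4 ± 4.53 and Qars (glutamine) at 62.1 ± 2.15 RPKM, and Kars and Qars differed by less than their spread. The lowest were Mars2 (methionine) at 0.799 ± 0.310, Pars2 (proline) at 1.91 ± 0.139 and Nars2 (asparagine) at 2.18 ± 0.0644 RPKM. The median over the 20 cytosolic genes was 31.3 RPKM and that over the 15 mitochondrial genes other than Lars2 was 8.01 RPKM, so the cytosolic median was 3.90 times the mitochondrial one. Rars2 at 14.1 ± 1.99 RPKM and Sars2 at 13.97 ± 0.558 RPKM stood above the lowest cytosolic gene, Cars at 13.6 ± 0.642 RPKM, by less than the spread. The same ratio of medians was 4.99 in MOF cKO, 7.05 in P0.5 control and 8.18 in Kansl1 cKO.

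The Lars2 entry (mitochondrial leucine enzyme) stood far from every other synthetase. It held between 35992 and 197042 counts per library, where the highest other member held between 2799 and 10173, and made up between 85.7% and 96.7% of all mitochondrial synthetase counts. Its level was 2660 and 6892 CPM in control and 9887 and 8303 CPM in MOF cKO. Rn45s, the entry of the ribosomal RNA precursor, was at 6033 and 17692 CPM in control and 29207 and 22174 CPM in MOF cKO, so both entries were lowest in control replicate 1 and highest in MOF cKO replicate 1. Lars2 held between 33.9 and 44.1 counts per 100 Rn45s counts at E16.5 and between 13.5 and 18.5 at P0.5. The part of ribosomal RNA in the Lars2 entry was not tested, and sums over mitochondrial genes are given without it.

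**Figure D1:**
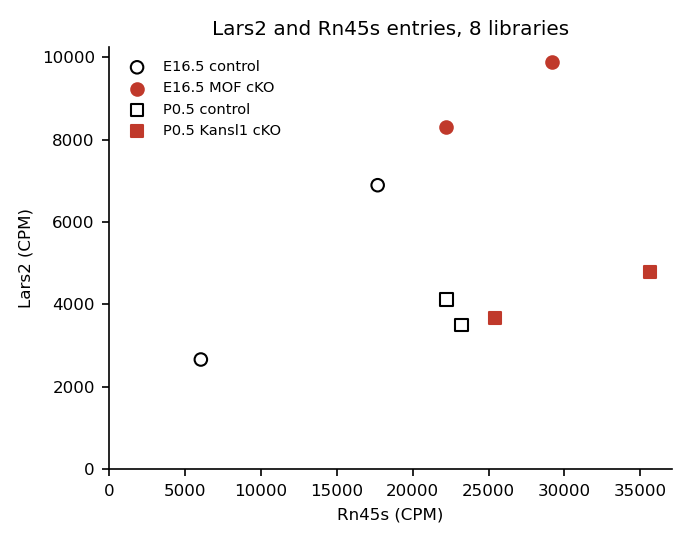
Level of the Lars2 entry (y axis, CPM) against that of the ribosomal RNA precursor Rn45s (x axis, CPM) in each of the 8 libraries, scaled within each experiment, with circles for E16.5, squares for P0.5, open symbols for control and filled ones for cKO. The E16.5 points climb from 2660 CPM of Lars2 at the lowest Rn45s to 9887 CPM at the highest.

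In MOF cKO the genes of the mitochondrial enzymes Tars2, Aars2, Sars2 and Vars2 were downregulated, by between 1.68- and 2.34-fold, and none of the 16 mitochondrial genes was upregulated. Among the cytosolic genes Cars and Gars were upregulated and Wars was downregulated. The study called genes with DESeq2. Its thresholds were kept, an adjusted p no higher than 0.01 and a change of more than 1.5-fold. They were applied here to edgeR's quasi-likelihood test (Benjamini-Hochberg over 13956 genes). So called, 4 of 16 mitochondrial genes were down (25%) and 0 up, where 9.59% of all genes tested were down and 10% up. Of the 20 cytosolic genes 2 were up (10%) and 1 was down (5%). The median log2 fold change was -0.35 over the mitochondrial genes, -0.45 of them without Lars2, and -0.020 over all genes. Over the cytosolic genes it was 0.12, and it turned to -0.19 when libraries were scaled by size alone, where the median of all genes moved to -0.32. None of the 36 genes was lost to the low-count filter in any comparison.

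Tars2, the mitochondrial threonine enzyme (GRCm38 chromosome 3, 95739976 to 95760206, minus strand), was at 44.0 and 51.9 CPM in control and 20.1 and 20.9 CPM in MOF cKO. It fell by 1.23 on the log2 scale (SE 0.144, adjusted p = 0.00103, edgeR). Aars2, the mitochondrial alanine enzyme (chromosome 17, 45506841 to 45520843, plus strand), was at 28.5 and 29.7 CPM in control and 14.5 and 14.3 CPM in MOF cKO. The groups were separated by far more than the gap within either, and the log2 fold change was -1.01 (SE 0.149, adjusted p = 0.00227). Sars2, which charges mitochondrial serine tRNAs (chromosome 7, 28741992 to 28753871, plus strand), was at 27.6 and 29.0 CPM in control and 13.3 and 16.6 CPM in MOF cKO. Its log2 fold change was -0.92 (SE 0.170, adjusted p = 0.00572). Vars2, the mitochondrial valine enzyme (chromosome 17, 35655634 to 35667592, minus strand), was at 53.3 and 65.6 CPM in control and 34.3 and 36.7 CPM in MOF cKO, a fitted log2 change of -0.74 (SE 0.142, adjusted p = 0.00643). Control libraries were high and MOF cKO libraries low for all 4 of these genes, with no overlap. The call of Sars2 was lost without MOF cKO replicate 1 (adjusted p = 0.0150, edgeR), and that of Vars2 without control replicate 2, without either MOF cKO library and in one fit over all 8 libraries (adjusted p up to 0.0261, edgeR).

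Of the other 12 mitochondrial genes, 7 lay below control without being called. Pars2, the proline enzyme, had the largest difference, at 5.999 and 6.604 CPM in control and 1.204 and 3.77 CPM in MOF cKO, with only 24 and 89 counts in the MOF cKO libraries and a log2 fold change of -1.33 (SE 0.517, adjusted p = 0.0795). Fars2 (phenylalanine) differed by -0.77 (adjusted p = 0.0468, edgeR) and Hars2 (histidine) by -0.50 (adjusted p = 0.0391, edgeR). When every gene with at least 1 count was kept, Pars2 and Fars2 were called down, and Lars2 and Mars2 up. Cars2, Rars2, Iars2 and Wars2 differed by between -0.45 and -0.18. Both MOF cKO values were under both control values in 11 of the 16 mitochondrial genes and over them in 4, and in 4 and 10 of the 20 cytosolic genes, where this held for 37.7% and 34.9% of all genes tested.

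The mitochondrial genes above control were Lars2, Mars2, Nars2, Ears2 and Yars2, none of them called. Lars2 differed by 0.93 (SE 0.373, adjusted p = 0.0867) and rests on the entry described above. Mars2, the mitochondrial methionine enzyme, was at 12.5 and 7.07 CPM in control and 19.7 and 14.3 CPM in MOF cKO (log2 fold change 0.79, SE 0.304, adjusted p = 0.0761, edgeR). The lower MOF cKO library was thus near the higher control library. Without Lars2, the summed level of the mitochondrial genes was 445 and 441 CPM in control and 338 and 321 CPM in MOF cKO. The cytosolic sum was 2312 and 2210 CPM in control and 2521 and 2464 CPM in MOF cKO, so the mitochondrial sum was 19.3% and 19.9% of the cytosolic sum in control and 13.4% and 13.0% in MOF cKO.

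**Figure D2:**
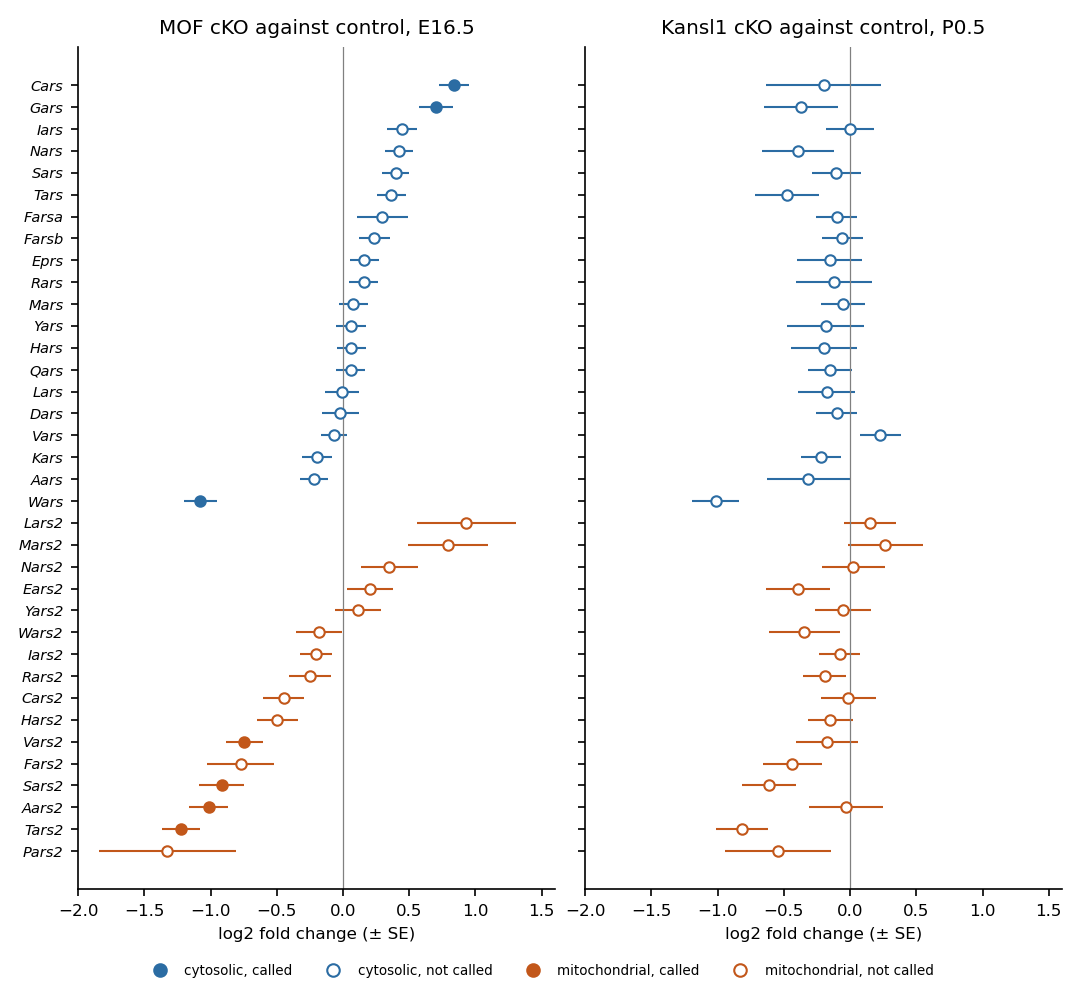
Log2 fold change (x axis, error bars ± SE) of each of the 36 synthetase genes in MOF cKO at E16.5 and Kansl1 cKO at P0.5, each against its own control with 2 libraries per group, in blue for cytosolic and orange for mitochondrial genes, with filled points for called genes. In MOF cKO the called mitochondrial genes lie between -1.23 and -0.74, and in Kansl1 cKO no point is filled.

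Among the cytosolic enzymes, Cars (cysteine; chromosome 7, 143557230 to 143600090, minus strand) was at 49.3 and 45.8 CPM in control and 85.1 and 85.0 CPM in MOF cKO. It was 1.79-fold higher, a log2 fold change of 0.84 (SE 0.113, adjusted p = 0.00168). Gars (glycine, in both compartments; chromosome 6, 55038007 to 55079500, plus strand) was at 96.4 and 92.7 CPM in control and 138 and 169 CPM in MOF cKO, 1.63-fold higher, with a log2 fold change of 0.70 (SE 0.126, adjusted p = 0.00504). The MOF cKO libraries were the high ones for both genes, with no overlap. Both calls were lost when libraries were scaled by size alone and in one fit over all 8 libraries, and that of Gars also without MOF cKO replicate 2. Cars shares 214 bases of transcript at 100% identity with the pseudogene Gm15580. The deposited counts kept reads without a unique alignment apart from all genes, at between 8.57% and 15.4% of reads per library. How many of these came from the shared bases is not known.

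Wars, the cytosolic tryptophan enzyme and a known interferon-induced gene, was lower. Its level was 55.9 and 58.9 CPM in control and 26.3 and 28.1 CPM in MOF cKO, a 2.11-fold fall (log2 fold change -1.08, SE 0.124, adjusted p = 0.000969, edgeR). The calls of Wars, Tars2 and Aars2 held in all 12 alternatives tried. Wars lies on the minus strand of chromosome 12 from 108860030 to 108894174. Wdr25 starts 543 bp away on the opposite strand and was called down too, at 6.42 and 7.04 CPM in control and 1.61 and 2.16 CPM in MOF cKO, a fitted log2 change of -1.83 (SE 0.354, adjusted p = 0.00675). Of the 14 interferon response genes tested, 4 were called up (Bst2, Isg15, Rsad2 and Usp18) and 0 down (28.6% up, against 10% of all genes), with Bst2, a membrane protein that tethers budding virus, at 1.21 and 0.830 CPM in control and 7.48 and 5.97 CPM in MOF cKO. The summed level of all 15 genes of the list overlapped between the groups, at 148 and 221 CPM in control and 180 and 167 CPM in MOF cKO. In control replicate 2, 3 of these genes were at 0.

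The other 17 cytosolic genes were not called. Iars (isoleucine) was at 109.8 and 102 CPM in control and 153 and 135 CPM in MOF cKO (log2 fold change 0.44, SE 0.114, adjusted p = 0.0197, edgeR), and it shares 1656 bases at 96.0% identity with the pseudogene Gm4849. Nars (asparagine) differed by 0.43, Sars (serine) by 0.40 and Tars (threonine) by 0.36, each with an adjusted p of 0.0340 or lower (edgeR). At an adjusted p of 0.05 and with no fold threshold, 6 cytosolic genes were thus higher and 1 lower, and 0 and 6 mitochondrial genes, against 19% and 19.8% of all genes. Below control, the values nearest to that of Wars were those of Aars, at -0.22 (adjusted p = 0.146, edgeR), and Kars, at -0.20 (adjusted p = 0.200, edgeR). The transcripts of Aars share 1326 bases with those of Exosc6, so reads there may not be told apart.

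The 8 enzymes of the multisynthetase complex, Dars, Eprs, Iars, Kars, Lars, Mars, Qars and Rars, spread between -0.20 and 0.44 with a median of 0.067, and none was called. None of its 3 scaffolds was called either. Eef1e1 was at 29.9 and 30.6 CPM in control and 45.6 and 44.2 CPM in MOF cKO (log2 fold change 0.57, adjusted p = 0.0102, edgeR). Its adjusted p was just above the threshold for a call, and its change was also under 1.5-fold. By structural class, 1 of the 19 class I genes was called up (5.26%) and 2 down (10.5%), and 1 of the 17 class II genes was called up (5.88%) and 3 down (17.6%), against 10% and 9.59% of all genes.

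**Figure D3:**
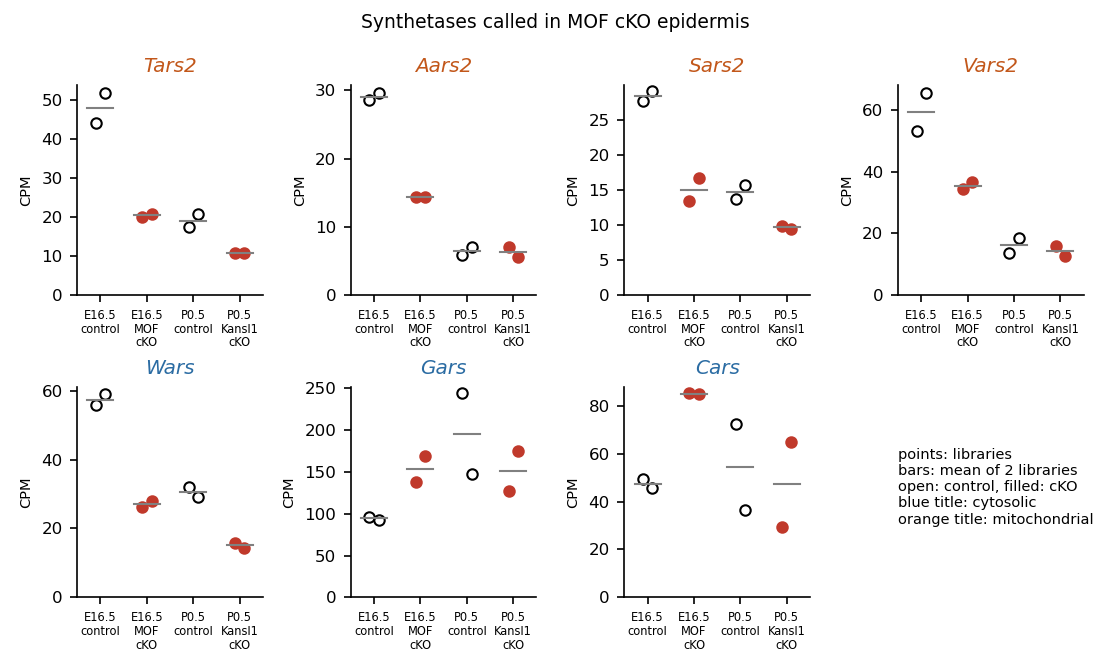
Level in CPM (y axis, from 0) of the 7 synthetase genes called in MOF cKO, in each library of the 4 groups (points) with the group mean (bar). E16.5 and P0.5 libraries were scaled separately. The 4 mitochondrial genes and Wars lie lower in both MOF cKO libraries than in both E16.5 control libraries, Gars and Cars higher.

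Most amino acids have a separate enzyme gene for each compartment, and these pairs were set side by side with no test. Over 14 amino acids, which give 15 pairs because Farsa and Farsb both encode the cytosolic phenylalanine enzyme, the mitochondrial log2 fold change in MOF cKO was the lower in 11 pairs and the higher in 4 (Lars2, Mars2, Wars2 and Yars2). The median difference was -0.65. The widest gap was that of threonine, 0.36 for Tars and -1.23 for Tars2, followed by serine at 0.40 and -0.92 and cysteine at 0.84 and -0.45. For tryptophan the order was turned, with -1.08 for Wars and -0.18 for Wars2. In Kansl1 cKO the mitochondrial value was the lower in 7 pairs and the higher in 8, with a median difference of 0.046.

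**Figure D4:**
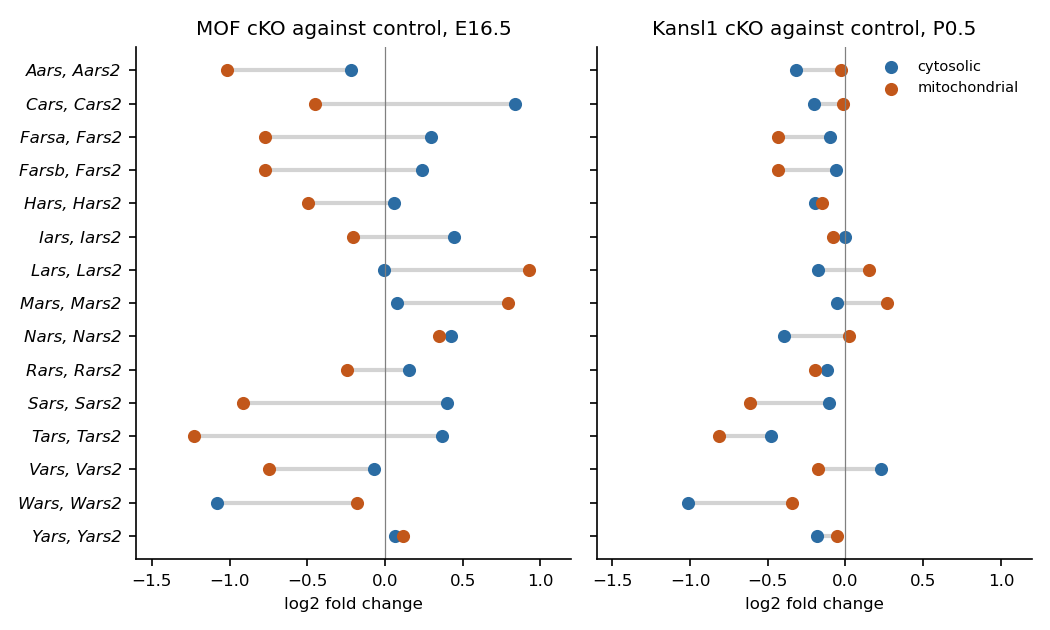
Log2 fold change (x axis) of the cytosolic and the mitochondrial enzyme gene of the same amino acid, joined by a line, in MOF cKO at E16.5 and Kansl1 cKO at P0.5. In MOF cKO the mitochondrial point is the lower in 11 of the 15 pairs, in Kansl1 cKO in 7.

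Mitochondrial glutamine tRNA is charged through an amidotransferase instead of a synthetase of its own, and the initiator methionine tRNA is formylated by Mtfmt. All 4 genes of these steps that were tested lay below control in MOF cKO with 0 called: Mtfmt differed by -1.13 (adjusted p = 0.0227, edgeR), Pet112 by -0.60, Qrsl1 by -0.59 and Gatc by -0.51. Of 16 genes of mitochondrial tRNA processing and modification, 10 lay lower and 1 was called down (6.25%, against 9.59% of all genes), Cdk5rap1, a tRNA methylthiotransferase, at 14.1 and 14.3 CPM in control and 5.82 and 6.14 CPM in MOF cKO (log2 fold change -1.25, adjusted p = 0.00395, edgeR). All 5 trans-editing and related genes lay lower, and 1 of them was called, Dtd1, which removes D-amino acids from tRNA, at 19.4 and 14.3 CPM in control and 4.57 and 5.42 CPM in MOF cKO (log2 fold change -1.75, adjusted p = 0.00197, edgeR).

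Of 26 genes of the ATF4 integrated stress response, 8 were called up in MOF cKO (30.8%, against 10% of all genes) and 0 down, with a median log2 fold change of 0.52. Atf4 itself was at 275 and 290.4 CPM in control and 457 and 504 CPM in MOF cKO (log2 fold change 0.77, adjusted p = 0.00182, edgeR). Asns, which makes asparagine, was at 40.4 and 34.8 CPM in control and 63.9 and 64.0 CPM in MOF cKO, a fitted log2 change of 0.77 (adjusted p = 0.00359, edgeR). The others called were Ddit4, Nupr1, Sesn2, Slc1a4, Slc1a5 and Slc7a11, with Slc7a11, the cystine transporter, at 1.76 and 0.902 CPM in control and 34.1 and 20.0 CPM in MOF cKO. Of the 8 genes of Myc and its partners, Myc was called up, at 38.9 and 33.0 CPM in control and 80.0 and 79.8 CPM in MOF cKO (log2 fold change 1.15, adjusted p = 0.000867, edgeR), and Mycl1 down (-0.85). Over all genes tested, 10% were called up and 9.59% down.

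In Kansl1 cKO no synthetase gene was called, and neither was any of the 13031 genes tested with edgeR (0%). At an unadjusted p under 0.05, 3 of the 36 genes differed, Wars, Tars2 and Sars2, all lower, where 8.26% of all genes were lower and 7.43% higher at this p. By DESeq2, the study's tool, 55 genes were called down and 35 up, with 0 synthetases among them. Of the 36 genes 32 lay below control, 19 of 20 cytosolic and 13 of 16 mitochondrial, with a median log2 fold change of -0.17 against 0.012 over all genes. Without control replicate 1, 21 lay below and 15 above. The groups did not overlap in 13 genes, 11 of them lower and 2 higher in both Kansl1 cKO libraries, where this held for 22.6% and 26.1% of all genes.

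Wars was at 32.2 and 29.1 CPM in control and 15.9 and 14.4 CPM in Kansl1 cKO, a fitted log2 difference of -1.01 (SE 0.175, adjusted p = 0.176). When every gene with at least 1 count was kept, Wars was called. Its neighbour Wdr25 was at 3.43 and 2.84 CPM in control and 1.02 and 1.42 CPM in Kansl1 cKO, a fitted log2 difference of -1.37 (SE 0.415, adjusted p = 0.231). Tars2 was at 17.5 and 20.7 CPM in control and 10.8 and 10.9 CPM in Kansl1 cKO, a fitted log2 difference of -0.82 (SE 0.197, adjusted p = 0.203). Sars2 was at 13.7 and 15.7 CPM in control and 9.83 and 9.48 CPM in Kansl1 cKO, a fitted log2 difference of -0.61 (SE 0.206, adjusted p = 0.250). For all 4 genes both Kansl1 cKO libraries were the lower ones. None passed the adjusted threshold in the edgeR fit with the low-count filter.

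Fars2 was at 15.2 and 20.7 CPM in control and 12.6 and 14.1 CPM in Kansl1 cKO (log2 difference -0.44, SE 0.222, adjusted p = 0.391) and Ears2 at 10.8 and 8.85 CPM in control and 7.36 and 7.50 CPM in Kansl1 cKO (log2 difference -0.39, SE 0.241, adjusted p = 0.478), both with no overlap between the groups. The groups overlapped for Pars2, Tars and Nars. Pars2 was at 3.43 and 6.65 CPM in control and 3.92 and 3.08 CPM in Kansl1 cKO, a fitted log2 difference of -0.54 (SE 0.402, adjusted p = 0.550). For Tars the levels were 130.0 and 83.0 CPM in control and 69.6 and 83.3 CPM in Kansl1 cKO, a fitted log2 difference of -0.48 (SE 0.240, adjusted p = 0.386). For Nars they were 202 and 114 CPM in control and 117 and 123 CPM in Kansl1 cKO, a fitted log2 difference of -0.39 (SE 0.269, adjusted p = 0.518). The control libraries were far apart for both of these cytosolic genes. Of the 4 genes above control, Vars was at 86.4 and 88.9 CPM in control and 108 and 96.8 CPM in Kansl1 cKO, a fitted log2 difference of 0.23 (SE 0.154, adjusted p = 0.518). Mars2 was at 5.61 and 5.23 CPM in control and 5.81 and 7.27 CPM in Kansl1 cKO (log2 difference 0.27, SE 0.281, adjusted p = 0.688) and Nars2 at 8.13 and 8.01 CPM in control and 7.84 and 8.61 CPM in Kansl1 cKO (log2 difference 0.026, SE 0.236, adjusted p = 0.971). Both were low and near the control levels. Lars2 was at 4119 and 3497 CPM in control and 3670 and 4793 CPM in Kansl1 cKO (log2 difference 0.15, SE 0.194, adjusted p = 0.745), and Aars2, called in MOF cKO, was at 5.84 and 7.04 CPM in control and 7.02 and 5.61 CPM in Kansl1 cKO (log2 difference -0.030, SE 0.280, adjusted p = 0.971). These adjusted p are from edgeR. Of the lists around the synthetases, 4 of 4 amidotransferase and formyltransferase genes, 11 of 16 tRNA processing genes and 5 of 5 trans-editing genes lay below control, and none was called. Markers of other cells also moved between these groups, with 6 of 6 melanocyte markers higher, at 437 and 487 CPM in sum in control and 944 and 1047 CPM in Kansl1 cKO, and 7 of 8 fibroblast markers lower, at 1760 and 1095 CPM against 927 and 741 CPM. Macrophage markers were higher in 12 of 14, at 220.0 and 254 CPM against 316 and 346 CPM. None was called, and their part was not tested.

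At P0.5 many cytosolic genes differed between the 2 libraries of a group. In control, replicate 1 was over 1.5-fold above replicate 2 for 8 of 20 cytosolic genes and 0 of 16 mitochondrial genes, where 7.1% of all genes above 1 CPM were. Cars was at 72.2 and 36.3 CPM, Aars at 89.2 and 45.9 CPM, Yars at 59.5 and 32.7 CPM and Gars at 244 and 147 CPM, against 108 and 106 CPM for Kars and 86.4 and 88.9 CPM for Vars. In Kansl1 cKO replicate 2 was the higher library for 15 of 20 cytosolic genes, over 1.5-fold for 2 of them, where 8.1% of all genes above 1 CPM were, with Cars at 29.4 and 65.0 CPM. Genes of the ATF4 list stood apart in the same libraries: Asns was at 98.5 and 45.3 CPM in control and 40.9 and 66.4 CPM in Kansl1 cKO, and Chac1, which degrades glutathione, at 18.2 and 4.91 CPM in control and 4.45 and 11.8 CPM in Kansl1 cKO. Of 26 genes of that list above 1 CPM, 9 were over 1.5-fold higher in control replicate 1 and 6 in Kansl1 cKO replicate 2. In each group 7 of the 26 were higher in the other library. Atf3 was so in both groups, by over 1.5-fold. Summed epidermal markers were higher in control replicate 1 and Kansl1 cKO replicate 2 as well, at 85488 against 54986 CPM and at 81608 against 55118 CPM. Both are the shallower library of their group. The part of depth and of cell composition in these gaps was not tested.

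**Figure D5:**
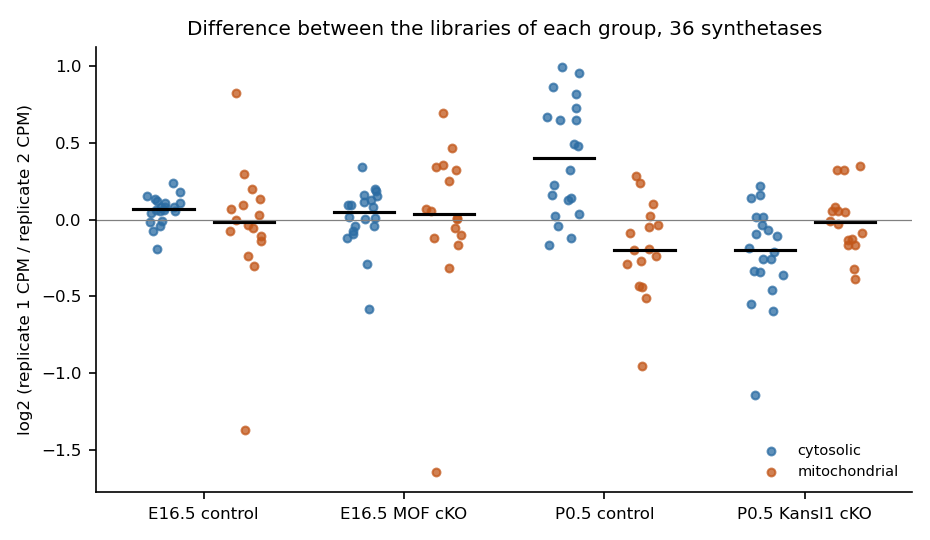
Log2 ratio of CPM in replicate 1 over replicate 2 (y axis) for each of the 36 synthetase genes in the 4 groups (x axis), by compartment, with black bars at the medians. In P0.5 control the cytosolic median is 0.40 and the mitochondrial one -0.19, while at E16.5 all medians lie between -0.017 and 0.072.

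The 2 deletions were compared in one fit over all 8 libraries, in which the deleted gene cannot be told apart from stage, isolation and sequencing instrument. The study names HiSeq for the MOF cKO and control libraries and NovaSeq for the Kansl1 cKO and control libraries. No synthetase differed between the effects at the thresholds, where 1.76% of 14565 genes were called with the MOF effect higher and 1.17% with it lower. At an unadjusted p under 0.05 the MOF effect was the higher for Gars, Tars, Nars and Sars and the lower for Aars2, where 14.8% and 16.4% of all genes were. The difference of Aars2 was -1.01 (SE 0.290, adjusted p = 0.0484). Gars differed by 1.04 (SE 0.334, adjusted p = 0.0676), Tars by 0.81 (SE 0.278, adjusted p = 0.0824) and Cars by 1.01 (SE 0.515, adjusted p = 0.215). All 3 are cytosolic genes whose P0.5 control libraries lay far apart. Gars was called by DESeq2 and, with Tars, when every gene with at least 1 count was kept. The other mitochondrial differences at either end were those of Pars2, -0.82 (SE 0.725, adjusted p = 0.482), Vars2, -0.60 (SE 0.285, adjusted p = 0.189), Lars2, 0.74 (SE 0.499, adjusted p = 0.343), Ears2, 0.57 (SE 0.284, adjusted p = 0.207), and Mars2, 0.50 (SE 0.443, adjusted p = 0.485). Ears2, the glutamate enzyme, was at 14.8 and 13.9 CPM in control and 15.6 and 17.5 CPM in MOF cKO and at 10.8 and 8.85 CPM in control and 7.36 and 7.50 CPM in Kansl1 cKO. The cytosolic genes with a difference below 0 were Vars, -0.33 (SE 0.172, adjusted p = 0.228), Wars, -0.095 (SE 0.207, adjusted p = 0.794), and Kars, -0.0098 (SE 0.175, adjusted p = 0.984), and those of Wars and Kars changed sign under other scalings. Vars was at 332 and 341 CPM in control and 322 and 319 CPM in MOF cKO, and Kars at 165 and 149 CPM in control and 144 and 129 CPM in MOF cKO and at 108 and 106 CPM in control and 90.9 and 93.2 CPM in Kansl1 cKO. A like effect of both deletions on Wars is not shown by a p above the threshold. Vars2 was at 13.7 and 18.5 CPM in control and 15.9 and 12.7 CPM in Kansl1 cKO, Gars at 128 and 176 CPM in Kansl1 cKO, and Tars at 69.0 and 69.7 CPM in control and 86.9 and 91.6 CPM in MOF cKO. All adjusted p of this fit are from edgeR.

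The controls of the 2 stages differed in many members. Between P0.5 and E16.5 control 7 cytosolic genes were called up (35%) and 3 down (15%), and 0 mitochondrial genes up and 5 down (31.2%), where 19.6% of all genes were called up and 20.6% down. Stage, isolation (sorted cells or epidermal sheet) and sequencing instrument (HiSeq or NovaSeq) cannot be told apart in this comparison. The median of the cytosolic genes was 0.34, but -0.021 when libraries were scaled by size alone, and that of all genes was -0.13 and -0.46. Without P0.5 control replicate 1 the cytosolic median was -0.030 with 5 genes called up, and without P0.5 control replicate 2 it was 0.70 with 10 called up. Without either E16.5 control library 4 were called up. Rars (arginine) was at 38.4 and 37.1 RPKM at E16.5 and 162 and 104 RPKM at P0.5, a log2 fold change of 1.82 (SE 0.240, adjusted p = 0.000221). Hars (histidine) was at 35.3 and 34.1 RPKM at E16.5 and 104 and 74.8 RPKM at P0.5, a change of 1.36 (SE 0.205, adjusted p = 0.000477). Gars was at 37.2 and 36.02 RPKM at E16.5 and 109.7 and 66.7 RPKM at P0.5 (log2 difference 1.27, SE 0.239, adjusted p = 0.00171). All P0.5 libraries lay above the E16.5 ones for these 3 genes, with a wide gap between the P0.5 libraries. Sars was at 24.0 and 24.3 RPKM at E16.5 and 51.6 and 46.5 RPKM at P0.5 (log2 difference 1.02, SE 0.143, adjusted p = 0.000306). Qars was at 63.6 and 60.6 RPKM at E16.5 and 116 and 131 RPKM at P0.5 (log2 difference 0.995, SE 0.133, adjusted p = 0.000245). Both lay closer together within a group. Tars was at 15.8 and 16.1 RPKM at E16.5 and 34.7 and 22.3 RPKM at P0.5 (log2 difference 0.83, SE 0.197, adjusted p = 0.00573), and Dars (aspartate) at 33.3 and 32.5 RPKM at E16.5 and 57.0 and 52.4 RPKM at P0.5 (log2 difference 0.73, SE 0.143, adjusted p = 0.00203), all with edgeR. Melanocyte markers, 6 of 6, and macrophage markers, 13 of 14, were called up in the same comparison, and their part was not tested.

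The genes called lower at P0.5 were led by Aars2, at 7.82 and 8.19 RPKM at E16.5 and 1.86 and 2.26 RPKM at P0.5, a log2 fold change of -1.95 (SE 0.210, adjusted p = 7.55e-05). Vars, the most abundant cytosolic gene at E16.5, was at 73.6 and 76.4 RPKM at E16.5 and 22.3 and 23.1 RPKM at P0.5 (log2 difference -1.72, SE 0.125, adjusted p = 8.96e-06). Vars2 was at 11.1 and 13.7 RPKM at E16.5 and 3.32 and 4.51 RPKM at P0.5 (log2 difference -1.65, SE 0.205, adjusted p = 0.000161). RNA of the valine enzyme genes of both compartments was thus lower in P0.5 control. Mars (methionine) was at 30.1 and 28.6 RPKM at E16.5 and 13.7 and 11.8 RPKM at P0.5 (log2 difference -1.20, SE 0.134, adjusted p = 8.85e-05), and Tars2 at 9.31 and 11.1 RPKM at E16.5 and 4.31 and 5.12 RPKM at P0.5 (log2 difference -1.10, SE 0.169, adjusted p = 0.000525). Wars was at 17.9 and 19.0 RPKM at E16.5 and 12.0 and 10.9 RPKM at P0.5 (log2 difference -0.69, SE 0.145, adjusted p = 0.00314), Sars2 at 13.6 and 14.4 RPKM at E16.5 and 7.86 and 9.04 RPKM at P0.5 (log2 difference -0.72, SE 0.189, adjusted p = 0.00952) and Hars2 at 12.8 and 11.7 RPKM at E16.5 and 7.66 and 8.21 RPKM at P0.5 (log2 difference -0.62, SE 0.165, adjusted p = 0.00991), all with edgeR. The calls of Rars, Hars, Qars, Sars, Vars, Mars, Aars2 and Vars2 held in all 14 alternatives, whereas those of Sars2 and Hars2 held in 2 and 4 of the 14 and that of Wars in 6. Those of Dars and Tars were lost with library size alone, without either E16.5 control library and without P0.5 control replicate 1, that of Gars without either E16.5 control library, and that of Tars2 without E16.5 control replicate 2. This comparison shares the E16.5 control libraries with that of MOF cKO, in which Aars2, Sars2, Tars2, Vars2 and Wars were called down too.

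Several members lie head to head with a neighbour or share bases with one. Starts on opposite strands lay within 1000 bp for 9 members. In MOF cKO Ubfd1, which faces Ears2, differed by 0.16 (adjusted p = 0.361, edgeR). Terf2ip, which faces Kars, differed by -0.088 (adjusted p = 0.670, edgeR). S100pbp, which faces Yars, differed by -0.41 (adjusted p = 0.209, edgeR), and none of these neighbours was called. Sars2 and Mrps12, a gene of the mitochondrial ribosome, start 172 bp apart, and while Sars2 was called down in MOF cKO, Mrps12 was at 21.1 and 19.7 CPM in control and 15.2 and 19.4 CPM in MOF cKO (log2 fold change -0.24, adjusted p = 0.332, edgeR). Rars2 and Orc3, of the origin recognition complex, start 13 bp apart, and there Orc3 was called down, at 34.1 and 32.5 CPM in control and 15.9 and 14.5 CPM in MOF cKO (log2 fold change -1.13, adjusted p = 0.00148, edgeR), while Rars2 differed by -0.25 (adjusted p = 0.257, edgeR). Fars2 and Lyrm4, which acts in iron-sulfur cluster assembly, start 114 bp apart, and Lyrm4 was at 8.28 and 9.78 CPM in control and 5.42 and 4.66 CPM in MOF cKO (log2 fold change -0.84, adjusted p = 0.0416, edgeR), lower in both MOF cKO libraries like Fars2, with neither called. Hars and Hars2 start 197 bp apart and share 195 bases of exon, and Iars2 shares 2034 bases with Rab3gap2. The kit keeps strand, but the strand setting of the counting is not given in the sources used here, so reads of overlapping genes may not be told apart. Reads left ambiguous between genes were kept apart in the deposited counts, at between 0.950% and 1.31% of reads per library.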

How the data were processed

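The members and gene lists were chosen with earlier results of these data known. The authors deposited read counts per gene for every library, as whole numbers with no normalization. The study's methods name HISAT2, mm10 and HTSeq-count, whereas the submitters' processing notes name TopHat2 with HTSeq. Entries naming no gene held between 21.1% and 26.0% of reads and were left out. Counts were filtered with filterByExpr, scaled with TMM and tested with edgeR 4.0.16 (quasi-likelihood, Benjamini-Hochberg, limma 3.58.1) in R 4.3.3. Each experiment was fitted alone, and the contrasts between them over all 8 libraries. DESeq2 1.42.0, other scalings, filters and thresholds, the replicate number as a block and leaving out each library were alternatives. Scripts were tested on simulated data. Exon lengths came from GENCODE M21, in which 98.1% of symbols matched, and shared sequence from blastn (at least 150 bases at 95% identity). Members called in a comparison were named in full, and with fewer than 6, also the 3 largest rises and falls per compartment. Wdr25, Orc3, Mrps12, Lyrm4, Ubfd1, Terf2ip and S100pbp were named after their values were seen. One count stood for between 0.0326 and 0.114 CPM.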

Additional observations from a re-analysis of the deposited data

How the results depend on the processing

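Libraries scaled by size alone moved the most values. In MOF cKO 0 cytosolic genes were then called up, and the medians were -0.19 (cytosolic) and -0.65 (mitochondrial). Between stages 8 cytosolic genes were called down, and the medians were -0.021 and -0.85. Upper-quartile factors gave medians of 0.051 and -0.41 in MOF cKO. DESeq2 and RLE factors gave medians of 0.48 and -0.39 between stages with 3 mitochondrial genes called down, RLE factors also 1 up, and DESeq2 called 1 gene between the deletions. With every gene of at least 1 count kept, 2 mitochondrial genes were called up in MOF cKO, 1 synthetase in Kansl1 cKO and 2 between the deletions, and between stages 3 mitochondrial genes were down with a median of -0.42. At an adjusted p of 0.05 with no fold threshold, 6 cytosolic genes were up in MOF cKO, 1 gene differed between the deletions, and between stages 7 cytosolic genes were down and 1 mitochondrial gene up. One fit over all 8 libraries called 0 cytosolic genes up in MOF cKO. With Gars and Kars counted as mitochondrial, MOF cKO had 1 cytosolic and 1 mitochondrial gene up and a mitochondrial median of -0.23, and the stages 1 mitochondrial gene up and a median of -0.43. Without Lars2 the mitochondrial median in MOF cKO was -0.45, an alternative chosen after seeing the data.

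Leaving out 1 library gave, in MOF cKO, between 1 and 2 cytosolic and between 0 and 1 mitochondrial genes called up, and medians from 0.057 to 0.16 and from -0.42 to -0.32. Between the deletions it gave 0 to 1 calls, and between stages 4 to 10 cytosolic genes up, 2 to 4 mitochondrial genes down, and medians from -0.030 to 0.70 and from -0.67 to -0.40, with the lone library of a group assumed to vary like the others. In Kansl1 cKO it gave log2 fold changes from -0.78 to 0.072 for Nars, -0.052 to 0.30 for Lars2, -0.039 to 0.058 for Nars2 and -0.91 to 0.0064 for Pars2. Nars2 was at -0.030 with library size and -0.027 with upper-quartile factors. Between the deletions Kars ran from -0.10 to 0.21 and Wars from -0.18 to 0.086. Kars was at 0.084 with DESeq2, 0.089 with RLE, 0.013 with upper-quartile factors and 0.11 with every gene kept, and Wars at 0.0059 with RLE and 0.029 with every gene kept. The cause was not tested for any of these.

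Replicate numbers were shared across groups. The study used littermate controls, but the labels do not say that a number marks a litter or day. Deviations of same-numbered libraries correlated at 0.25 in the MOF experiment and -0.26 in the Kansl1 experiment. With the replicate block 11 synthetases were called in MOF cKO, the 7 called without it, 2 more up (Lars2 and Mars2) and 2 more down (Fars2 and Pars2), and 1903 genes in all were up and 2263 down against 1395 and 1338. In Kansl1 cKO the block called 0 and the crossed pairing 1 gene, no synthetase among them.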
